A study of Mus musculus with 3 samples.

Results

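The cells described here are the squamous basal cells of the mouse larynx, the keratinocytes that carry the basal keratins *Krt5* and *Krt14* at a high level and show no UMI of the airway factor *Nkx2-1*. They were chosen by their own counts. Among barcodes that passed the limits on quality, a cell was a member with at least 40 UMIs (unique molecular identifiers, each 1 captured RNA molecule) of *Krt5* plus *Krt14* per 10000 UMIs, at least 1 *Trp63* UMI, no *Nkx2-1* UMI and under 20 *Krt13* UMIs per 10000. The rule took 2017 of 41033 passing cells. A count of 0 depends on depth, and 338 members held under 5000 UMIs, so members may include cells whose *Nkx2-1* was not captured. With cells thinned to 5000 UMIs the rule took a mean share of 5.51% of the cells deep enough, in place of 3.96%. All cells came from 3 single-cell RNA libraries of tdTomato-sorted cells of *Lrig1CreERT2/+; ROSALSL-tdTom/+* mice, a reporter in which tamoxifen makes the cells that express *Lrig1* at that time, and their later offspring, red. Tamoxifen was given on 2 consecutive days and larynges were collected 24 h after recombination, with 10 larynges of 5 male and 5 female mice pooled in each library. The library is therefore the replicate (n = 3), every library belongs to the same condition, and the comparisons are between groups of cells within libraries. No library of unsorted or reporter-negative cells was analysed here, and since the feature list has no entry for the reporter or the recombinase, the sort has no check in these values.

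The vocal folds are lined by stratified squamous epithelium, while much of the rest of the larynx has a pseudostratified ciliated epithelium of airway type. In a stratified squamous epithelium the basal layer rests on the basement membrane through hemidesmosomes, divides, and gives rise to suprabasal cells that exchange basal keratins for others and build up a tough envelope. The transcription factor p63, encoded by *Trp63*, maintains basal keratinocytes, and KRT5 and KRT14 pair to form their intermediate filaments. LRIG1 is a transmembrane protein that restrains receptors of the ErbB family and marks stem or progenitor cells in several epithelia.

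Libraries 1, 2 and 3 held 331, 143 and 1543 members, or 2.64% (95% Wilson interval 2.37 to 2.93), 2.00% (1.70 to 2.35) and 7.23% (6.89 to 7.58) of their passing cells, on average 3.96% ± 2.85 (SD, n = 3). Intervals cover counting error only. Library 3 stood apart from the other two beyond its interval and supplied 76.5% of the members. Of the passing cells, 4097 met the keratin limit, 3718 of these also had *Trp63*, 2365 also lacked *Nkx2-1*, and 2017 were under the *Krt13* limit. The median member of libraries 1, 2 and 3 held 11609, 18023 and 16262 UMIs. Its number of detected genes was 4048, 5065 and 5063. Over all members, the sums reached 4220267, 2440875 and 25805962 UMIs. All other passing cells had a median of 9709, 13800 and 11938 UMIs. Between 46 and 165 barcode sequences were shared by a pair of libraries, under 1% of the smaller library in each pair.

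The markers named for these cells were counted in every library. *Krt5*, *Krt14* and *Trp63* chose the members, so their levels are a description. In counts per 1000000 UMIs of the summed cells (CPM), *Krt5* was at 2705, 2545 and 3586 in libraries 1, 2 and 3, against 563, 679 and 1356 in all other cells. *Krt14* was at 3643, 2958 and 3243 in the members and at 338, 409 and 585 in the other cells. *Trp63* was at 1069, 792 and 936, against 400.0, 494 and 619.7. The members lay above the other cells in all 3 libraries for each of these genes, as the rule set it. *Krt5* lies at chr15:101615505-101621346, *Krt14* at chr11:100093988-100098490 and *Trp63* at chr16:25502513-25710852 of GRCm39, with the former pair on the reverse strand and *Trp63* on the forward strand.

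Just inside the keratin limit, with 40 to 45 UMIs per 10000, there were 79, 37 and 306 members, and just outside it, with 35 to 40, there were 103, 79 and 407 cells that met the rest of the rule. *Col17a1* was at 569, 391 and 431 CPM inside and at 529, 428 and 424 CPM outside. *Lrig1* was at 63.4, 67.0 and 72.0 CPM inside and at 61.5, 66.6 and 90.2 CPM outside. The limit therefore lies within a continuous range, as the plot of cells by keratin level shows, and the members are its upper end.

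**Figure D1:**
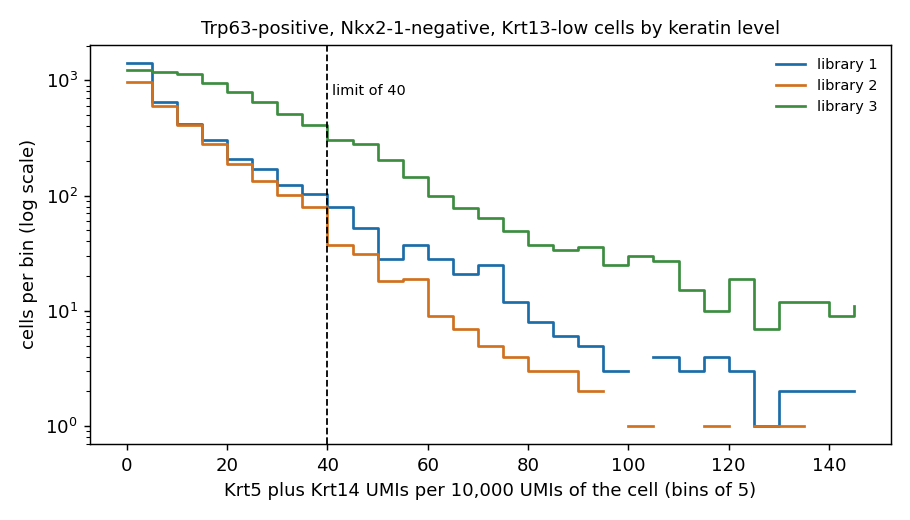
Cells of each library that met the rest of the rule, by *Krt5* plus *Krt14* UMIs per 10000 UMIs (x axis) and number of cells in bins of 5 (y axis, log scale), with the limit of 40 marked, bins from 150 on not drawn and a break in a line where a bin holds no cell. No empty bin lies near the limit, and 331, 143 and 1543 cells lie at or above it in libraries 1, 2 and 3.

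Within a library the members differed widely. The *Krt5* plus *Krt14* level had a median of 55.4, 51.3 and 54.6 UMIs per 10000 and reached 252, 167 and 283. The share of *Krt14* in the summed UMIs of both keratins had a median of 55.6%, 57.3% and 46.0%, with the middle 50% of cells between 44.9 and 67.1%, 36.0 and 71.3%, and 34.4 and 56.0%. *Krt13*, the keratin of the suprabasal layers of squamous mucosa, had a median of 0.353, 0 and 0.512 UMIs per 10000, so most members held little of it. At least 1 *Krt13* UMI was counted in 50.8%, 48.3% and 55.1% of the members, against 11.8 to 16.7% of cells of the endothelial gate, defined as passing cells with UMIs of 3 or more of 5 endothelial genes and taken as a measure of free RNA. The gate's cells were shallower, with medians of 7923, 6253 and 5527 UMIs.

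Other keratins were measured beside those of the rule. Levels are UMIs captured at the 3' end, which are not divided by gene length. *Krt15*, a basal keratin of stratified epithelia, was at 5614, 5480.4 and 7743 CPM in the members and 2246, 2874 and 4948 CPM in the other cells. *Krt17*, induced in activated and appendage keratinocytes, was at 1597, 1087 and 2248 CPM against 359, 367 and 916 CPM. Both were higher in the members in each library and the ranges did not overlap. *Krt6a*, a keratin of activated and mucosal keratinocytes, was at 445 ± 134 CPM (SD, n = 3), *Krt4*, the partner of KRT13, at 457 ± 70.8 CPM, and *Krt75* at 90.2 ± 27.3 CPM. Of the keratins of simple epithelia, *Krt7* was at 138 ± 20.3, *Krt19* at 63.9 ± 0.406, *Krt8* at 38.9 ± 5.15 and *Krt18* at 27.9 ± 1.15 CPM.

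Genes that define other cell types were at a low level in the members. The 7 myoepithelial genes, which matter because gland myoepithelial cells also carry *Krt5* and *Krt14*, summed to 5.69, 1.64 and 5.39 CPM in the members and to 187, 91.4 and 137 CPM in the other cells, and 2 of the 7 had no UMI in any member. *Acta2*, smooth muscle actin, was at 2.37, 0 and 2.17 CPM. The 5 endothelial genes summed to 3.79, 8.6 and 1.67 CPM, the 4 muscle satellite genes to 1.42, 2.05 and 6.12 CPM and the 6 fibroblast genes to 11.1, 6.15 and 29.2 CPM, the last against 962, 260.4 and 865 CPM in the other cells. All other-type lists were lower in the members than in the other cells in every library. UMIs of 3 or more genes of other types were held by 28 members, and 2 or more myoepithelial genes by 6. *Bpifa1*, an abundant secreted airway product, was at 645, 179 and 279.7 CPM in the members, 11073, 6373 and 5757 CPM in the other cells and 1540.3, 541 and 5294 CPM in the endothelial gate, so it was counted in each of these groups.

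The sequence just before the start of *Krt5*, *Krt14*, *Col17a1* and *Lypd8l* is printed here, since these markers were summed over the same group of cells. No window of *Trp63* is shown. Each is the 250 bases before the start of the gene's canonical transcript in GRCm39 (GENCODE vM39), 5' to 3' on the gene's own strand, which is the reverse strand for all 4, in lower case with any match to a motif in capitals. The *Krt5* window is chr15:101621347-101621596, the *Krt14* window chr11:100098491-100098740, the *Col17a1* window chr19:47680534-47680783 and the *Lypd8l* window chr11:58504322-58504571, the last inside the span of a longer transcript of the gene.
Krt5: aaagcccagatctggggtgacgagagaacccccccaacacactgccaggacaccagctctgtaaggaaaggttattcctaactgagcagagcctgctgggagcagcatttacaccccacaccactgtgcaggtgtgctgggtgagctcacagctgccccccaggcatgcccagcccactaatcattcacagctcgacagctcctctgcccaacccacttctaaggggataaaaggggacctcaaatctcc
Krt14: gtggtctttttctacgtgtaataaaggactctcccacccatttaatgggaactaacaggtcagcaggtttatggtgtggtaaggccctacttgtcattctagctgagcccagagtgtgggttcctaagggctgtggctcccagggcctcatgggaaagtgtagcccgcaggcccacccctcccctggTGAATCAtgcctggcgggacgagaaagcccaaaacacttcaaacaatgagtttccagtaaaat
Col17a1: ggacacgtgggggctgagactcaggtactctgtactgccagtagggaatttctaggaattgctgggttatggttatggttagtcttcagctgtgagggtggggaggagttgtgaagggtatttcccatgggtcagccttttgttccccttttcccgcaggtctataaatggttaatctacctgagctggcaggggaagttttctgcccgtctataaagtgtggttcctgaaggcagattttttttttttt
Lypd8l: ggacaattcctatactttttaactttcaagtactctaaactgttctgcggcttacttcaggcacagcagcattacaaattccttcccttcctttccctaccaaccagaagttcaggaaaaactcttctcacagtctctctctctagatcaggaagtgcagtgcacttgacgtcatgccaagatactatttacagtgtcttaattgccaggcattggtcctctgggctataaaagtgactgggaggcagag
Both strands were searched for a loose form of the AP-1 motif, TGANTCA with any base at N. A core p63 motif, made of CATG, 6 further bases of any kind and CATG again, was searched for as well. Each pattern reads the same on the other strand. The capitals in the *Krt14* window mark a match to this loose AP-1 form, with A as the middle base, from -63 to -57. The other windows hold neither set of letters. An AP-1 match was present in 6.17% of the windows of 21770 protein-coding genes and the p63 core in 0.41%. Among genes tested against all other cells an AP-1 match was present in 4.92% of windows, and among those higher in the members in 4.56%.

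To describe what else separated the members from the rest of the sorted larynx, UMIs were summed per library over the members and over all other passing cells and compared with edgeR's quasi-likelihood test, with the library kept in the fit. Fold changes are on the log2 scale after TMM normalization, so they are close to but not the same as ratios of CPM. The genes of the rule were left out of the test. A called gene therefore describes cells picked by keratin level and is not independent evidence that they form a type. Of 18713 genes tested, 3753 (20.1%) were higher in the members and 5025 (26.9%) lower at an adjusted p under 0.05, so a count of genes called in a list has to be read against these shares. The lists were chosen with earlier results of these data known. Their counts and medians, in this and the further comparisons, are therefore a description and not independent of the choice of members.

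Anchorage to the basement membrane was the first group. Of 18 genes for hemidesmosomes and the basement membrane, 14 were higher and 2, the laminins *Lamb1* and *Lamc1*, lower, with a median log2 fold change of 0.82, against -0.069 over all genes tested. *Col17a1*, the transmembrane collagen of the hemidesmosome (chr19:47634783-47680533), was at 564, 461 and 480.3 CPM in the members of libraries 1, 2 and 3 and at 150.0, 174 and 228 CPM in the other cells. The lowest member value was above the highest value of the other cells (log2 fold change 1.58, SE 0.13, adjusted p = 1.28e-07). *Itga6* and *Itgb4*, the integrin pair that binds laminin 332, rose by a log2 fold change of 1.05 and 0.88 (adjusted p = 4.09e-06 and 1.59e-05). *Lama3* and *Lamb3*, chains of laminin 332, rose by 1.06 and 1.02 on the same scale (adjusted p = 3.97e-06 and 2.32e-06). *Lama5* and *Thbs1* did not pass the test, at 70.4, 67.6 and 56.9 CPM against 57.8, 73.8 and 58.7 CPM for the former and 6.87, 2.87 and 3.14 CPM against 9.96, 4.92 and 3.68 CPM for the latter. *Col17a1* and *Lypd8l* had been named as markers with results of these data known, so their calls are not independent of the choice of members.

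Desmosomes, which fasten keratinocytes to each other, followed. Of 10 desmosome genes 8 were higher and 1, *Pkp2*, lower (median log2 fold change 1.04). *Dsc3*, a desmosomal cadherin of stratified epithelia, was at 187, 146 and 154 CPM in the members and 30.5, 32.9 and 40.7 CPM in the other cells. The groups were far apart in all 3 libraries (log2 fold change 2.35, SE 0.12, adjusted p = 9.25e-10). *Dsg3*, its desmoglein counterpart, was at 287, 269.6 and 209 CPM against 81.8, 119 and 113 CPM (1.42, adjusted p = 6.98e-07) and *Pkp1*, a plaque protein, at 149, 127 and 129 CPM against 47.6, 61.5 and 79.1 CPM (1.25, adjusted p = 2.63e-06). *Dsg2*, a desmoglein that simple epithelia also carry, did not pass, at 72, 64.7 and 65.2 CPM against 72.6, 83.6 and 85 CPM.

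Among 18 transcription factors of squamous epithelia that were tested, 13 were higher and 2 lower (median log2 fold change 0.65). *Pitx1*, a homeobox factor of oral and anterior epithelia, was at 220.4, 195 and 215 CPM in the members and 58.8, 78.9 and 96.8 CPM in the other cells, with no overlap (log2 fold change 1.57, SE 0.12, adjusted p = 9.96e-08). *Barx2* (1.03, adjusted p = 7.97e-07), *Tfap2a* (0.76, 8.66e-05) and *Bnc1* (0.93, 0.00146) also rose. *Sox2*, which both airway and squamous basal cells need, was at 247, 320.4 and 345 CPM against 216, 279 and 337 CPM, a small difference within overlapping ranges (0.26, adjusted p = 0.0229) whose call was lost without any 1 library (adjusted p = 0.0914, 0.0757 and 0.135 without libraries 1, 2 and 3). Without the library in the fit, 8 of the 18 factors were called higher.

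*Lypd8l*, a member of the Ly6/PLAUR family at chr11:58499030-58506901, was at 33.2, 31.5 and 105 CPM in the members and 7.59, 10.5 and 17.8 CPM in the other cells, with library 3 well above the others (2.30, SE 0.17, adjusted p = 5.69e-08). It was counted in 16.3%, 18.2% and 28.5% of members, against 0.718%, 0% and 0% of cells of the endothelial gate, where no UMI in 34 and 54 cells allows shares up to 10.2% and 6.64% by the Wilson interval. Of 15 Ly6/PLAUR genes tested, 6 were higher and 4 lower, against 20.1% and 26.9% of all genes tested. *Ly6a*, which encodes the antigen Sca-1, was at 833, 934 and 865 CPM against 462, 443 and 446 CPM (1.08, adjusted p = 2.76e-07), and *Plaur*, the urokinase receptor, at 93.1, 41 and 28.6 CPM against 26, 18.2 and 11.7 CPM (1.59, adjusted p = 2.78e-07). *Tmprss11a*, a transmembrane serine protease of squamous mucosa, was at 589.5, 625 and 600.3 CPM against 165, 221 and 298 CPM, above the other cells in every library (1.57, adjusted p = 1.08e-07). Of 7 TMPRSS genes tested 4 were higher and 1 lower, or 1 higher without the library in the fit.

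Genes of the suprabasal layers and of the cornified envelope were also higher than in the rest of the larynx. Of 18 tested, 11 were higher and 3 (*Cnfn*, *Calml3* and *Tgm3*) lower, with a median log2 fold change of 0.76. *Krtdap*, a keratinocyte differentiation gene, was at 31.5, 41 and 122 CPM in the members and 6.54, 2.64 and 13.4 CPM in the other cells. It had the largest rise of the genes named for this comparison (log2 fold change 3.24, SE 0.21, adjusted p = 1.24e-08), and library 3 was the highest of the members. *Lgals7*, a galectin of stratified epithelia, was at 1125, 671 and 1019 CPM against 116, 82.7 and 156 CPM (3.13, adjusted p = 6.39e-11) and *Krt6a* at 523, 291 and 522 CPM against 78.9, 61.2 and 178 CPM (2.29, adjusted p = 2.34e-08). *Cnfn*, cornifelin, an envelope gene of the uppermost layers, had 4 UMIs over all members.

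The simple and airway programme was the reverse. Of 17 airway and simple epithelial genes tested, none was higher and 15 were lower, with a median log2 fold change of -2.49. The rule kept cells with a *Nkx2-1* UMI out of the members and left them among the other cells. A fall of genes that go with *Nkx2-1* is therefore not independent of the rule. *Krt19* was at 64, 64.3 and 63.5 CPM in the members and 354, 379 and 488 CPM in the other cells, with members much alike across libraries (-2.55, SE 0.11, adjusted p = 1.76e-10). *Scgb3a2*, a secretoglobin of airway secretory cells, was at 80.1, 9.42 and 51 CPM against 598, 382 and 498 CPM (-3.34, adjusted p = 6.76e-08) and *Aqp4*, a water channel of airway basal and glandular cells, at 45.3, 56.1 and 58.8 CPM against 196, 221 and 245 CPM (-1.92, adjusted p = 6.55e-10). *Cyp2f2*, a cytochrome P450 of airway secretory cells, made up most of the list's summed level in the members, at 2428, 2309.8 and 2666 CPM against 4317, 4373 and 5817 CPM in the other cells and 625, 209 and 1307 CPM in the endothelial gate (-0.84, adjusted p = 1.48e-05). *Krt7* was at 144, 116 and 156 CPM against 176, 189 and 282 CPM (-0.50, adjusted p = 0.00155), a call lost without the library in the fit. *Foxa1* did not differ beyond the test, at 86.5, 102 and 119 CPM against 88.2, 111 and 144 CPM (adjusted p = 0.868). At the far end were immune and stromal genes, with *C1qa*, *C1qb*, *Cxcl13*, *Myoc* and *Ms4a4d* at 0 to 0.711 CPM in the members and at 4.94 to 66.4 CPM in the other cells.

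The cell cycle was the next group. All 20 genes of the S, G2 and M phases were higher in the members than in the other cells, with a median log2 fold change of 2.29, against 20.1% of all genes tested. *Mki67*, the proliferation antigen Ki-67, was at 74.4, 35.2 and 116 CPM in the members of libraries 1, 2 and 3 and at 11.4, 6.55 and 24.9 CPM in the other cells. Library 2 was the lowest and library 3 the highest of both groups, and every member value was above every value of the other cells (2.58, SE 0.12, adjusted p = 4.05e-10). *Top2a*, topoisomerase II of dividing cells, was at 85.3, 34.8 and 115 CPM against 12.8, 8.7 and 28.6 CPM (2.39, adjusted p = 4.94e-09). Among the largest rises were the mitotic genes *Ube2c* (2.99, and 3.64 without library 3), *Hmmr* (2.79), *Birc5* (2.75), *Cdc20* (2.54) and *Cenpa* (2.47), *Pclaf* (2.75), which acts in replication, and the linker histone *H1f5* (2.76).

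Cells with several of these genes were also counted, a share that depth limits and that does not show which cells were outside the cycle. UMIs of 5 or more of the 20 genes were held by 13.3%, 13.3% and 28.1% of members, by 1.97%, 2.34% and 5.50% of *Nkx2-1* positive basal cells, by 8.24%, 7.30% and 17.1% of the *Krt13*-high cells described further on and by 0.359%, 0% and 0% of cells of the endothelial gate, where the 2 counts of 0 were over 34 and 54 cells. With each cell thinned to 5000 UMIs, which leaves out 338 members, the shares were 10.2%, 5.36% and 14.2% of members, 0.996%, 0.323% and 2.01% of *Nkx2-1* positive basal cells and 3.93%, 1.83% and 8.26% of *Krt13*-high cells. The cyclin genes *Ccnd1* and *Ccnd2*, which drive entry into the cycle, rose as well (1.30 and 0.96, adjusted p = 4.39e-08 and 1.30e-06), and *Cdkn1a*, the inhibitor p21, was lower at 36.3, 11.1 and 18 CPM against 92.6, 63.3 and 44.4 CPM (-1.41, adjusted p = 8.61e-06). The third D cyclin, *Ccnd3*, was lower at 61.4, 84.4 and 57.9 CPM against 179, 225 and 137 CPM (-1.26, adjusted p = 1.05e-07), and the inhibitor *Cdkn2a* was higher at a level of 1.18, 2.05 and 0.698 CPM against 0.592, 0.587 and 0.321 CPM (1.39, adjusted p = 0.0185), a call lost without library 2 (adjusted p = 0.0905), without library 3 (0.178) and without the library in the fit. Of 9 D cyclin and inhibitor genes, 3 were higher and 4 lower, against 20.1% and 26.9% of all genes tested.

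Other genes named by size of rise included *Igfbp2*, a binding protein of insulin-like growth factors, at 435, 292 and 515 CPM against 62.7, 39.7 and 86.1 CPM (2.87, adjusted p = 3.50e-11), and *Chit1*, a chitinase, at 142, 113 and 100.2 CPM against 20.4, 12.7 and 21.4 CPM (2.83, adjusted p = 4.20e-10). Both were above the other cells in all 3 libraries with no overlap. *Klk10*, a kallikrein protease of squamous epithelia, rose by 2.72, *Aknad1* by 2.69 and *Sprr2a3*, a small proline-rich envelope protein of a family whose members share much of their sequence, by 2.47 on the log2 scale.

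Signalling genes were taken from 3 lists by role. In the Notch pathway, where ligands on a cell activate receptors on its neighbour, 4 of 13 genes tested were higher and 7 lower (median log2 fold change -0.46). The ligands *Jag2*, at 185, 153 and 167 CPM against 92, 114 and 127 CPM, and *Dll1*, at 70.1, 34.4 and 35.4 CPM against 19.7, 19.6 and 21.1 CPM, and the glycosyltransferase *Lfng* rose (0.74, 1.27 and 1.10, adjusted p = 0.000101, 3.33e-05 and 1.79e-05). The receptors *Notch2* and *Notch3* and the targets *Hes1* and *Hey1* were lower (-0.72, -1.46, -0.46 and -2.09, with adjusted p at or below 0.000927), and *Hey1* was at -2.90 without library 3. The ligand *Dll4* had no UMI in the members and was at 4.18, 0.436 and 0.155 CPM in the other cells, a call that was lost without library 1 (adjusted p = 0.0903). *Notch1*, the receptor, was at 92.9, 71.3 and 87.7 CPM against 70.2, 71.4 and 83.3 CPM, and its small rise (0.29, adjusted p = 0.0293) was lost without library 1 (adjusted p = 0.252), without library 3 (0.0867) and without the library in the fit.

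In the Wnt pathway 12 of 19 genes were higher and 5 lower, or 7 and 3 without the library in the fit. The ligand *Wnt10a*, which acts in squamous epithelia and their appendages, was at 201, 132 and 219 CPM in the members and 38.1, 38.3 and 69.4 CPM in the other cells, all members above all others (2.07, SE 0.13, adjusted p = 6.17e-09). The ligands *Wnt3a*, *Wnt4* and *Wnt7b* rose by 1.85, 0.82 and 0.77 (adjusted p = 1.63e-07, 1.41e-05 and 0.000191). *Lgr6*, a receptor for R-spondins in stem cells of skin and its appendages, was at 107, 91.4 and 115 CPM against 73.3, 92.4 and 118 CPM, with overlapping ranges and a higher CPM in 1 of 3 libraries (0.29, adjusted p = 0.0495), and lost its call without library 1 (0.10, adjusted p = 0.542). With the keratin limit at 80 UMIs per 10000 its log2 fold change was -0.22.

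Among 13 Lrig and ErbB receptor and ligand genes, 4 were higher and 3 lower, not far from the 20.1% and 26.9% of all genes tested. *Lrig1* itself (chr6:94581510-94677242) was at 46, 45.5 and 55 CPM in the members of libraries 1, 2 and 3 and at 69.1, 88.5 and 93.1 CPM in the other cells. The members of each library were below the other cells of all libraries, in a sort made through this gene's own promoter (log2 fold change -0.63, SE 0.11, adjusted p = 0.000189). With the keratin limit at 20 UMIs per 10000, which takes in cells with less keratin, the log2 fold change was 0.047. *Lrig3*, its relative, was higher at 133, 125 and 111 CPM against 73.3, 94.9 and 89.6 CPM (0.64, adjusted p = 0.000177), and *Lrig2* did not pass the test (0.023, adjusted p = 0.888). *Egfr*, the receptor, was at 371, 308 and 306 CPM against 292, 296 and 317 CPM (adjusted p = 0.0568), and *Erbb4* was lower (-3.84, adjusted p = 3.60e-08). The ligands *Areg* and *Ereg* were called higher (1.83 and 1.62), and lost the call without library 3 (1.10 and 0.20, adjusted p = 0.0774 and 0.905), while *Ereg* was at 2.31 without library 1.

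The ligand *Hbegf* was at 237, 44.2 and 42.2 CPM in the members and 34.5, 32.4 and 20.1 CPM in the other cells, with library 1 far above the others (1.65, adjusted p = 0.0003, and 0.95 without library 1). The stress factor *Atf3* followed the same order of libraries at 216, 62.7 and 22.2 CPM, and its call was lost without library 1 (log2 fold change 0.18, adjusted p = 0.278, from 1.12 with all libraries and 1.81 without library 2). *Fosl1*, an AP-1 factor of injured epithelium, was at 35.5, 7.78 and 10.3 CPM against 3.14, 3.46 and 1.11 CPM (2.96, adjusted p = 9.65e-06). UMIs of all of *Hbegf*, *Atf3* and *Fosl1* were held by 33, 4 and 27 members, or 9.97%, 2.80% and 1.75%, and UMIs of all of *Ntng1*, *Cntn5* and *Wnt5b* by 2, 0 and 8. Of 17 genes known to respond to tissue dissociation 6 were higher and none lower, which became 4 and 5 without library 1, 12 and 0 without library 2 and 10 and 0 without library 3. The summed level of the 17 genes was 5532, 2815 and 2111 CPM in the members and 2335, 4008 and 2047 CPM in the other cells, so library 1 was the highest of the members and in library 2 the members were the lower group. The part of dissociation in these values was not tested.

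A second group of basal cells, of airway type, was defined here as passing cells with UMIs of *Nkx2-1*, *Trp63* and *Krt5* and under 20 *Krt13* UMIs per 10000. There were 2033, 1584 and 6759 of them, with a median of 15160, 19239 and 14916 UMIs. Of 15986 genes tested, 3901 (24.4%) were higher in the members and 3681 (23.0%) lower, in all 7582, against 4920 without the library in the fit. Their *Krt5* and *Krt14* levels, which the rule fixes in part, were 894, 872 and 1601 and 580.0, 669 and 816 CPM in libraries 1, 2 and 3. The keratin limit of the members was not asked of these cells, and 154, 116 and 989 of them met it. The groups compared therefore differ in keratin level as well as in *Nkx2-1*. *Trp63* was at 741, 687 and 781 CPM, in cells that had to hold a UMI of it by definition.

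Markers of other cell types were also lower in the members in this comparison, with 6 of 6 fibroblast, 5 of 5 ciliated, 4 of 4 muscle satellite, 3 of 5 gland, 3 of 4 thyroid, 2 of 3 myoepithelial, 2 of 3 macrophage, 1 of 2 neuroendocrine and 0 of 2 endothelial genes tested called lower and none higher. In libraries 1, 2 and 3 the fibroblast genes summed to 32, 2.48 and 99.1 CPM in the airway basal cells against 11.1, 6.15 and 29.2 CPM in the members, the ciliated genes to 33.8, 20.1 and 30.2 against 13, 7.78 and 9.3 CPM, the muscle satellite genes to 14.7, 16.2 and 19.2 against 1.42, 2.05 and 6.12 CPM and the gland genes to 53.9, 692 and 67.8 against 27, 26.6 and 25.9 CPM. All 4 sums were higher in the airway basal cells in each library except that of the fibroblast genes in library 2. Their part in the differences between the basal cells was not tested.

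Adhesion again separated them. Of the 18 hemidesmosome and basement membrane genes 13 were higher in the members and 2 lower (median log2 fold change 0.33, and 8 higher without the library in the fit), and of the 10 desmosome genes 8 were higher and 2, *Dsg2* and *Pkp2*, lower (median 0.78). *Col17a1* was at 564, 461 and 480.3 CPM in the members and 216, 195 and 251 CPM in the airway basal cells, with no overlap (1.26, SE 0.08, adjusted p = 5.82e-07). *Dsc3* was at 43.5, 39.5 and 44.3 CPM in the airway basal cells (2.00, adjusted p = 1.93e-08) and *Itgb4* at 292, 279 and 304 CPM (0.44, adjusted p = 0.000211). *Lypd8l* was at 5.41, 3.57 and 8.44 CPM in the airway basal cells, a difference of 3.34 on the log2 scale (SE 0.18, adjusted p = 2.05e-07), and it was counted in 2.12%, 2.46% and 5.07% of them.

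**Figure D2:**
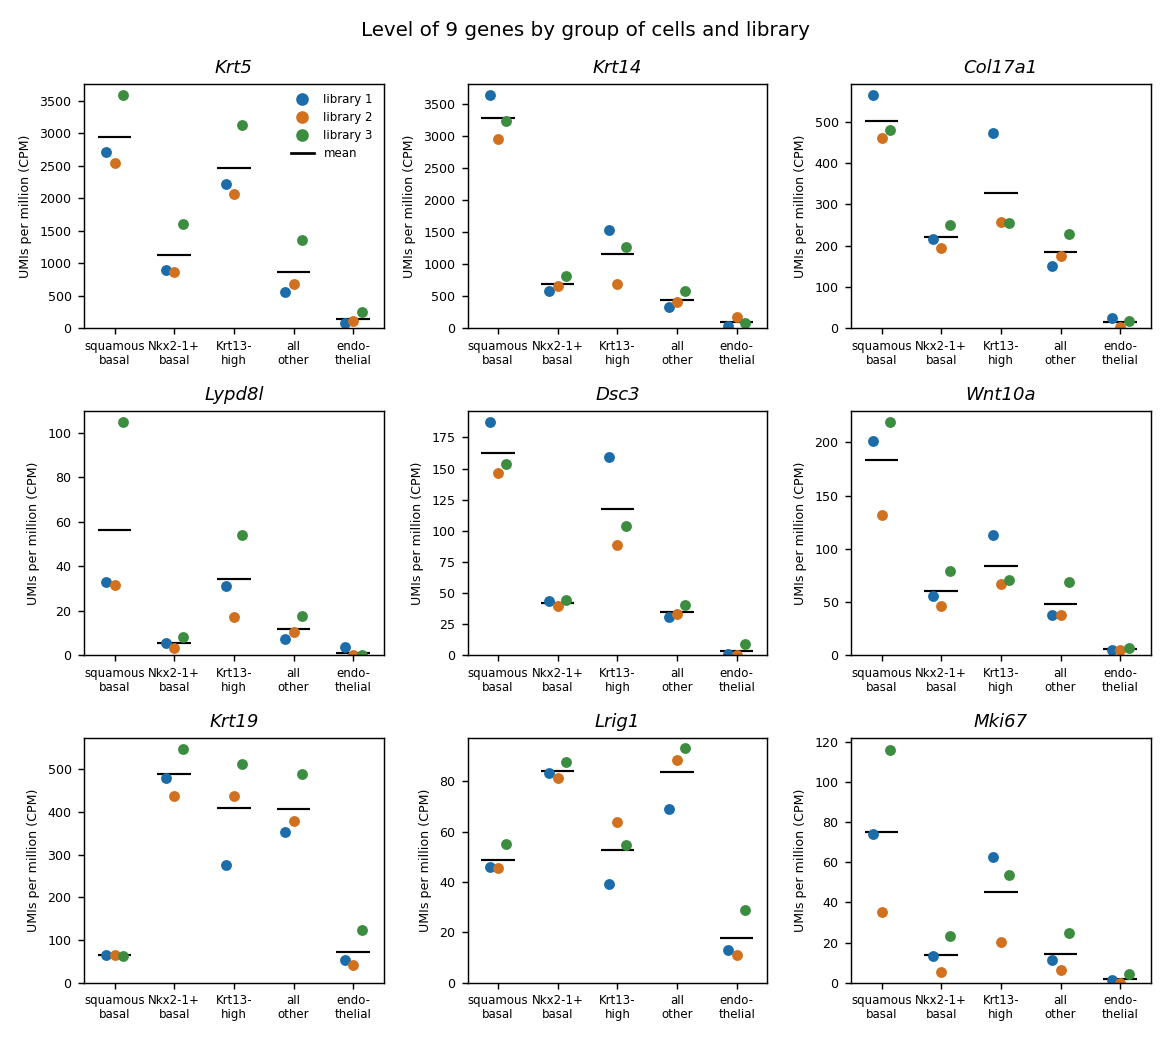
CPM (y axis, linear from 0, with its own range in each panel) of 9 genes in 5 groups of cells (x axis), with a point for each of the 3 libraries and a bar at their mean. *Krt5*, *Krt14*, *Col17a1*, *Dsc3* and *Wnt10a* are highest in the squamous basal cells in each library, *Krt19* is lowest there among the epithelial groups at 63.5 to 64.3 CPM, and *Lrig1* is lower, at 45.5 to 55.0 CPM, than in the *Nkx2-1* positive basal cells.

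Squamous factors were mostly higher in the members. Of 17 tested, 14 were higher and none lower (median log2 fold change 0.74). *Pitx1* was at 49.3, 66.6 and 82.5 CPM in the airway basal cells (1.76, SE 0.12, adjusted p = 1.15e-06) and *Barx2* at 72.7, 77.1 and 119 CPM (1.12, adjusted p = 1.53e-06). *Sox2* was at 294, 311 and 381 CPM, overlapping the range of the members (-0.044, adjusted p = 0.64). *Tmprss11a* was at 132, 173 and 229 CPM (1.87, adjusted p = 3.88e-07). The call of *Bnc1* (0.52, adjusted p = 0.0116) was lost without library 3 (adjusted p = 0.0746).

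The largest rises over airway basal cells were in *Chit1* (3.80), *Lgals7* (3.53), *Krtdap* (3.53), *Lypd8l*, *Klk10* (3.32), *Dmkn* (3.29), a secreted keratinocyte protein, the actin bundler *Fscn1* (3.15), *Gpnmb* (3.13), *Igfbp2* (3.08) and the protease inhibitor *Serpine2* (2.86). Of 16 suprabasal and envelope genes 12 were higher and 2, *Dapl1* and *Calml3*, lower, with a median log2 fold change of 1.94. *Krt6a* was at 523, 291 and 522 CPM in the members and 62.3, 60.7 and 102 CPM in the airway basal cells, several times higher in each library (2.64, SE 0.14, adjusted p = 1.35e-07). *Gpnmb* was at 192, 109 and 64.8 CPM against 9.84, 15 and 14.1 CPM, with library 1 the highest and library 3 the lowest of the members.

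All 17 airway and simple epithelial genes were lower in the members, with a median log2 fold change of -2.13. *Krt19* was at 479, 437 and 548 CPM in the airway basal cells (-2.87, SE 0.077, adjusted p = 1.84e-09), *Aqp4* at 352, 308 and 321 CPM (-2.52, adjusted p = 3.01e-08) and *Scgb3a2* at 768, 521 and 825 CPM (-3.89, adjusted p = 9.64e-07). The largest falls were in *Kcnip4* (-5.58), *Tg* (-5.30), *Trf* (-5.15), *Akr1c14* (-5.03), *Sult1d1* (-4.90), *Ugt2b34* (-4.90), *Mdga2* (-4.89), *Elapor1* (-4.88), *Pcdh9* (-4.86) and *St3gal5* (-4.63). Without library 3 the log2 fold change of *Kcnip4* was -6.21, that of *Ugt2b34* -7.62, that of *Mdga2* -6.68 and that of *St3gal5* -5.87. *Pcdh9*, a protocadherin, was at 9.95, 13.9 and 12.3 CPM against 546, 436 and 293 CPM and *Sult1d1*, a sulfotransferase, at 22.7, 2.87 and 11.1 CPM against 509, 395 and 344 CPM, in both cases far below in all 3 libraries. *Tg*, thyroglobulin, is the defining product of the thyroid that lies on the larynx, and was at 146, 158 and 31.1 CPM in the airway basal cells. The part of thyroid RNA in that value was not tested.

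Proliferation also differed between the basal cells. All 20 S, G2 and M genes were higher in the members, with a median log2 fold change of 2.24, and *Mki67* was at 13.1, 5.34 and 23.1 CPM in the airway basal cells (2.56, SE 0.09, adjusted p = 1.03e-08). *Ccnd1* and *Ccnd2* rose by 1.07 and 0.93 (adjusted p = 6.23e-07 and 7.25e-07), and *Ccnd3* was lower (-1.30, adjusted p = 4.85e-07). *Lrig1* was lower in the members, at 46, 45.5 and 55 CPM against 83.2, 81.5 and 87.9 CPM, with no overlap (-0.69, SE 0.083, adjusted p = 6.60e-05), while *Lrig3* was higher (0.42, adjusted p = 0.000686) and *Egfr* did not pass the test (-0.015, adjusted p = 0.871). In cells that met the rest of the rule at a keratin level of 20 to 40, *Lrig1* was at 82.1, 88 and 107 CPM. These values lay within or above the airway basal range. The summed S, G2 and M genes of these cells were at 273, 191 and 349 CPM. The same sum was 550, 372 and 897 CPM in the members and 162, 131 and 259 CPM in the airway basal cells. The part of keratin level in these differences was not tested. *Hbegf* was higher (2.08, adjusted p = 0.000416, and 1.42 without library 1), and 10 of the 17 dissociation genes were higher and none lower, or 9 and 3 without library 1.

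In the Notch pathway 4 of 11 genes were higher and 3 lower than in airway basal cells, not far from the 24.4% and 23.0% of all genes tested. *Notch1* was at 92.9, 71.3 and 87.7 CPM against 97.4, 87.9 and 94.4 CPM and did not pass the test (-0.064, adjusted p = 0.548). *Hes1*, the target, was at 129.6, 188 and 147 CPM against 276, 268 and 274 CPM, lower in each library (-0.76, adjusted p = 5.85e-05). *Dll1* was higher (0.74, adjusted p = 0.002). *Jag2* was higher in each library by a small margin within overlapping ranges (0.20, adjusted p = 0.0338), and lost its call without library 1 (adjusted p = 0.0631) and without library 3 (0.109). Of 19 Wnt genes 9 were higher and 2 lower, led by *Wnt10a* at 201, 132 and 219 CPM against 55.7, 46 and 79.7 CPM (1.68, adjusted p = 1.22e-07), while *Lgr6* did not pass the test (-0.16, adjusted p = 0.0873).

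**Figure D3:**
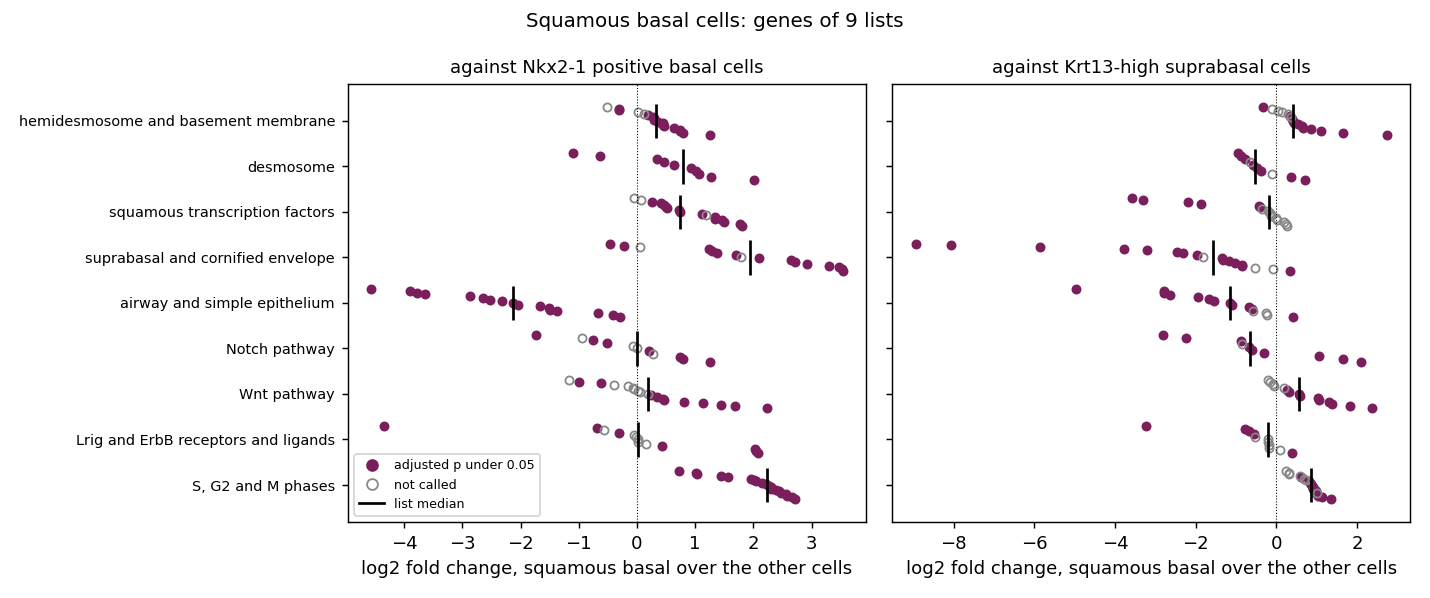
Log2 fold change (x axis) of every tested gene of 9 lists (rows) in the squamous basal cells against *Nkx2-1* positive basal cells (left) and against Krt13-high cells (right), filled where called at an adjusted p under 0.05, with a bar at the median of each list and a wider axis on the right. The S, G2 and M genes lie around 2.24 on the left and 0.87 on the right, airway genes have a median of -2.13 on the left and -1.15 on the right, and suprabasal genes change sign between the panels, from a median of 1.94 to -1.58.

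The layer above was taken as passing cells with at least 20 *Krt13* UMIs per 10000 and no *Nkx2-1* UMI, of which there were 352, 137 and 631, with a median of 15832, 22402 and 20644 UMIs. Neither *Trp63* nor *Krt5* was asked of these cells and their place in the tissue is not known. The words layer above and upper layer therefore stand for this *Krt13* level, and the group may be mixed. The same test was run against this layer. Of 12185 tested, 1197 (9.82%) were higher in the members and 1505 (12.4%) lower, in all 2702. The count was 910 without the library in the fit, 3160 without library 1, 2169 without library 2 and 1322 without library 3. *Krt5* was nearly as high in this layer, at 2220.4, 2059 and 3129 CPM, and *Krt14* lower, at 1529, 686 and 1270.3 CPM, as was *Trp63*, at 578, 353 and 303 CPM. The basal keratins *Krt15*, at 5862, 7108 and 10333 CPM, and *Krt17*, at 1455, 1024 and 3849 CPM, did not pass the test (-0.41 and -0.31, adjusted p = 0.0618 and 0.252), and *Krt15* was above the members of the same library in all 3.

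The largest rises over this layer were in *Col25a1* (4.19), a transmembrane collagen, *Itga2* (2.97), a collagen-binding integrin chain, *Tnc* (2.95), tenascin C, *Sdk2* (2.72), *Lgr6* (2.37), *Epb41l3* (2.29), *Adamtsl1* (2.28), *Adamts1* (2.22), *Sema3a* (2.18) and *Sparc* (2.18). *Tnc* was at 221, 262 and 343 CPM in the members and 33.9, 24 and 38.4 CPM in the layer above, and *Lgr6* at 107, 91.4 and 115 CPM against 12.5, 19.7 and 24 CPM. Neither gene's ranges overlapped (adjusted p = 9.71e-07 and 1.12e-05).

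Of 17 hemidesmosome and basement membrane genes 11 were higher and 1 lower (median log2 fold change 0.42), with 6 higher without library 3 and 3 without the library in the fit. *Col17a1* was at 564, 461 and 480.3 CPM against 473, 258 and 254 CPM, and library 1 of the upper layer lay within the range of the members. Its call (0.55, SE 0.12, adjusted p = 0.0124) was lost without library 2 (adjusted p = 0.0533) and without library 3 (0.054). *Lypd8l*, at 31.2, 17.3 and 54.3 CPM in the layer above (0.54, adjusted p = 0.0387), lost its call without library 2 (0.0637) and without library 3 (0.441), and both markers lost it without the library in the fit. *Itga6* did not pass the test (0.051, adjusted p = 0.745). Desmosome genes ran the other way, with 2 of 10 higher and 6 lower (median -0.53), and *Pkp1* at 149, 127 and 129 CPM against 199, 191 and 245 CPM (-0.78, adjusted p = 0.000712). Of 14 Ly6/PLAUR genes tested 2, *Lypd8l* and *Ly6c1*, were higher and 7 lower. Of 6 TMPRSS genes tested none was higher and 3 were lower. Over all genes tested, 9.82% were higher and 12.4% lower.

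Differentiation genes were lower in the members. These groups were split by *Krt13*, itself a suprabasal keratin. A fall of genes that go with it is therefore not independent of the split. Of 18 suprabasal and envelope genes 1, *Dapl1*, was higher, a call lost without library 3 (adjusted p = 0.102) and without the library in the fit, and 14 were lower (median log2 fold change -1.58), or 7 lower without the library in the fit. *Krt4* was at 529, 388 and 455 CPM in the members and 1857, 1857 and 2561 CPM in the layer above, well apart (-2.31, SE 0.14, adjusted p = 5.86e-06). *Krt6a* was at 523, 291 and 522 CPM against 915, 554 and 1873 CPM (-1.33, adjusted p = 0.000843) and *Sbsn*, suprabasin, at 16.6, 16.8 and 20.2 CPM against 43.8, 35.9 and 101 CPM (-1.96, adjusted p = 0.000204, and -1.37 without library 3). *Grhl3*, a factor of barrier formation, was at 1.9, 4.51 and 7.29 CPM against 32.7, 21.9 and 64 CPM (-3.31, adjusted p = 9.63e-06), and of 16 squamous factors none was higher and 6 were lower. *Krtdap* was lower (-0.86, adjusted p = 0.0193), but with the keratin limit at 80 it was higher in the members by 0.91.

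Among the 10 largest falls, *Psca*, a Ly6 family antigen, was at 0.237, 0.41 and 0.349 CPM in the members and 58.2, 110.0 and 74.4 CPM in the layer above, and *Muc4*, a membrane mucin, at 3.55, 1.64 and 5.46 CPM against 75.9, 110.3 and 151 CPM. *Cyp2a5*, a cytochrome P450, was at 10.4, 9.42 and 6.9 CPM against 423, 475 and 376 CPM (-5.76, SE 0.12, adjusted p = 1.64e-08). None of these ranges overlapped. *Cnfn*, *Ifit1bl1*, *Ly6g6c*, *Alox15*, *Krt6b*, *Ttc36* and *Sult1b1* were the others named by the rule, and *Cnfn* was at 15.5, 31 and 71.9 CPM in the upper layer, highest in library 3. Without library 3 the log2 fold change of *Ly6g6c* went from -6.49 to -4.11 and that of *Krt6b* from -5.87 to -3.35. That of *Alox15* went from -6.34 to -7.35.

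Airway and simple epithelial genes were also mostly lower in the members than in this layer, with 11 of 15 lower, 1 higher and a median log2 fold change of -1.15. The list summed to 4042, 3246 and 3961 CPM in the members and 6427, 8545 and 10214 CPM in the layer above. *Cyp2f2* was at 3762, 5299 and 5747 CPM there (-1.10, adjusted p = 0.000501) and *Krt7* at 332, 389 and 491 CPM (-1.66, adjusted p = 1.05e-05), both above all members. *Foxa1*, at 86.5, 102 and 119 CPM in the members against 58.8, 65.6 and 86.8 CPM, was the gene that was higher, within overlapping ranges (0.41, adjusted p = 0.00758), and lost its call without the library in the fit.

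Notch ligands went both ways across the layers. *Jag2*, at 185, 153 and 167 CPM in the members against 112, 71.2 and 53.1 CPM, and *Dll1*, at 70.1, 34.4 and 35.4 CPM against 31.9, 9.87 and 6.29 CPM, were higher in the members (1.06 and 1.65, adjusted p = 0.000995 and 0.000833), as was *Lfng* (2.10, adjusted p = 0.000993, and 1.495 without library 3). The ligand *Jag1*, at 58.8, 71.7 and 61.5 CPM against 70.1, 74 and 72.2 CPM, was lower within overlapping ranges (-0.31, adjusted p = 0.0319), a call lost without library 1 (adjusted p = 0.0697) and without library 3 (0.283). The receptors *Notch1*, at 92.9, 71.3 and 87.7 CPM against 153, 101 and 119 CPM, and *Notch3*, at 6.16, 6.15 and 12.1 CPM against 41.5, 61 and 67.8 CPM, were lower (-0.68 and -2.81, adjusted p = 0.000573 and 2.93e-06). So were the targets *Hes1* and *Nrarp* (-0.88 and -2.25, adjusted p = 0.000102 and 5.46e-05), and *Notch2*, whose call was lost without library 3 (adjusted p = 0.0949). Of 10 Notch genes tested 3 were higher and 6 lower, and 3 were lower without the library in the fit, where the calls of *Jag1*, *Jag2*, *Dll1*, *Notch1* and *Notch2* were lost.

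Of 15 Wnt genes 10 were higher in the members and none lower (median log2 fold change 0.56), with 5 higher without library 3 and 4 without the library in the fit. *Wnt10a* was at 201, 132 and 219 CPM against 113, 67.3 and 71.1 CPM (1.05, adjusted p = 0.000695), and *Wnt3a* rose by 1.31 (adjusted p = 0.000772). *Lrig1* was at 46, 45.5 and 55 CPM in the members and 39.3, 63.8 and 54.6 CPM in the layer above, within overlapping ranges (-0.18, adjusted p = 0.364). *Lrig3* was higher (0.40, adjusted p = 0.00804), a call lost without library 3 (adjusted p = 0.0617). Of 11 Lrig and ErbB genes tested it was the 1 called higher, and 4 were lower, namely *Erbb2*, *Erbb3*, *Hbegf* and *Btc*. Over all genes tested, 9.82% were higher and 12.4% lower. The fall of *Hbegf* (-0.56) lost its call without library 2 (adjusted p = 0.0821) and without library 3 (0.0712).

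Proliferation genes were in part higher in the members than in this layer. Of the 20 S, G2 and M genes 13 were higher in the members (median log2 fold change 0.87), but 19 were without library 1, 4 without library 3 and none without the library in the fit. *Mki67* was at 74.4, 35.2 and 116 CPM against 62.6, 20.1 and 53.7 CPM, above in each library while the ranges overlapped (0.62, adjusted p = 0.0192, and 0.35 with an adjusted p of 0.223 without library 3). With the keratin limit at 20 UMIs per 10000 its log2 fold change was -0.11. *Ccnd2*, at 718, 680.5 and 785 CPM against 374, 367 and 471 CPM, did not overlap (0.73, SE 0.085, adjusted p = 0.000339).

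The members were not uniform along their own keratin level. After these values were seen, cells that met the rest of the rule were summed by *Krt5* plus *Krt14* level, from 20 to 40 (outside the limit), 40 to 60, 60 to 80 and 80 or more UMIs per 10000, as a description without a test. Library 2 had 25 and 13 cells in the upper bins, so its values there rest on few cells. *Lrig1* was at 82.1, 88 and 107 CPM just below the limit, 51.7, 47.2 and 66.8 CPM from 40 to 60, 48.6, 36.5 and 56.5 CPM from 60 to 80 and 21.7, 43.2 and 24.3 CPM from 80 on. It was lowest in the top bin in libraries 1 and 3, and in library 2 the 60 to 80 bin was lower than the top one. *Aqp4* fell from 137, 150.3 and 174 CPM to 59.4, 61.8 and 85.3, then 38.3, 51.7 and 31.5, then 5.78, 5.41 and 14.3 CPM.

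The summed S, G2 and M genes were at 273, 191 and 349 CPM below the limit, 353, 220.0 and 614 from 40 to 60, 649, 356 and 869 from 60 to 80 and 1093, 1978 and 1626 from 80 on. *Krt6a* went from 113, 102 and 98.3 CPM to 1534, 454 and 1264 CPM, higher in each further bin of each library. *Krtdap* went from 5.93, 2.82 and 3.49 CPM below the limit to 123, 81.1 and 465 CPM from 80 on, and in library 2 it was highest from 60 to 80. *Col17a1* moved less, from 445, 373 and 381 CPM to 667, 368 and 513 CPM, and in library 2 its top bin was the lowest of the 4. The summed keratins are part of each cell's total, and these cells also differ in depth, so the levels along this order describe the sorted bins only.

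**Figure D4:**
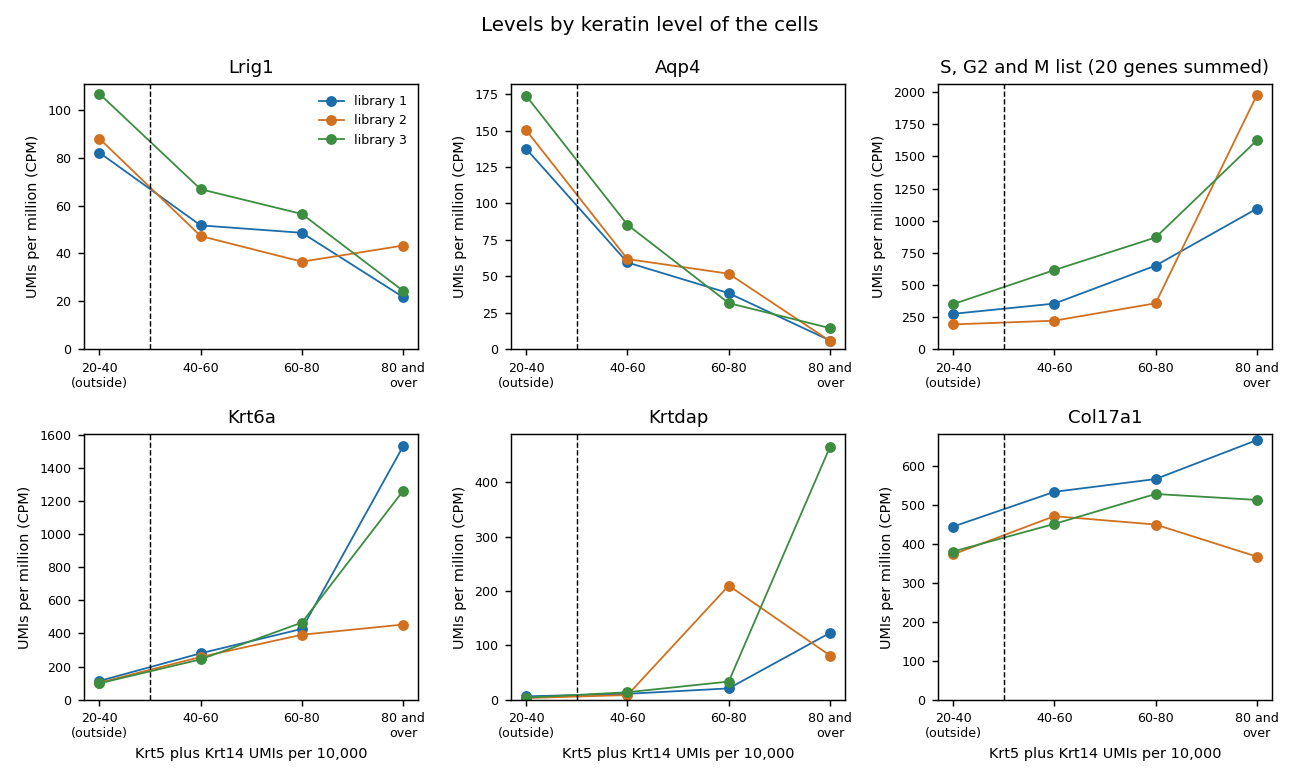
CPM (y axis, linear from 0) of 5 genes and of the summed S, G2 and M list by *Krt5* plus *Krt14* level (x axis, UMIs per 10000), with a line for each library. *Lrig1* and *Aqp4* are lower in the top bin of each library than below the limit, where they lie at 82.1 to 107 and 137 to 174 CPM, while *Krt6a*, *Krtdap* and the S, G2 and M list are higher in the top bin and *Col17a1* stays within 368 to 667 CPM.

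At least 1 *Lrig1* UMI was counted in 118 of 331, 58 of 143 and 717 of 1543 members, or 35.6% (95% Wilson interval 30.7 to 40.9), 40.6% (32.9 to 48.8) and 46.5% (44.0 to 49.0), on average 40.9% ± 5.42 (SD, n = 3). In the endothelial gate the share was 10.8%, 11.8% and 16.7% at median depths of 7923, 6253 and 5527 UMIs. The gate's cells passed the same *Lrig1*-driven sort, so for this gene their own RNA and free RNA cannot be told apart and the gate is no background. *Nkx2-1* positive basal cells reached 59.4%, 67.0% and 61.7%. Among cells that could be thinned to 5000 UMIs the shares were 18.2%, 15.2% and 21.8% of members, 5.67%, 16.0% and 10.3% of the endothelial gate, the last 2 over 25 and 29 cells, and 32.4%, 31.0% and 33.2% of *Nkx2-1* positive basal cells. In library 2 the thinned share of members was not above that of the endothelial gate.

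To see whether members with and without a *Lrig1* UMI (Lrig1+ and Lrig1- here) differed in other genes, both were summed per library and compared in the same fit, with *Lrig1* left out. Lrig1+ members were deeper, with a median of 17437, 21927 and 19084 UMIs against 6824, 11951 and 12800 in Lrig1- members, and had less keratin, with a median of 48.6, 49.0 and 51.7 *Krt5* plus *Krt14* UMIs per 10000 against 57.8, 54.4 and 57.8. Of 10806 genes tested, 59 (0.546%) were higher in Lrig1+ members and 72 (0.666%) lower, in all 131. The count was 296 with Lrig1- members matched on library and UMI count, 113 with DESeq2, 0 without the library in the fit, with 326 genes at an unadjusted p under 0.05, and 0 without library 1, with 865. Without libraries 2 and 3 it was 442 and 93. Members were not matched on keratin level. *Krt6a*, *Krtdap*, *Aqp4* and the summed S, G2 and M genes also differed between the keratin bins above. The part of keratin level in the differences of this split was not tested.

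Some differentiation genes were called lower in Lrig1+ members. Of 15 suprabasal and envelope genes none was higher and 6 were lower, namely *Krt6a*, *Krt16*, *Sbsn*, *Lgals7*, *Krtdap* and *Sfn*. *Krtdap* was at 6.81, 35.5 and 47.6 CPM in Lrig1+ and 55, 47.4 and 215 CPM in Lrig1- members, lower in each library although the ranges overlapped (-2.05, SE 0.21, adjusted p = 0.000538). *Krt6a* was at 370.4, 239 and 381 CPM against 668, 353 and 696 CPM (-0.82, SE 0.069, adjusted p = 0.000106). Without library 1 neither passed (adjusted p = 0.084 and 0.0652), and without library 3 *Krtdap* did not (0.162). The list had 10 genes lower without library 2, 3 without library 3, and none without library 1 or without the library in the fit.

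Of 20 S, G2 and M genes 19 did not pass the test in this split, and 1, *Rrm2*, a subunit of ribonucleotide reductase, was lower (median log2 fold change -0.88), at 4.37, 4.53 and 22.1 CPM in Lrig1+ and 18, 20.6 and 41.1 CPM in Lrig1- members (-1.17, adjusted p = 0.0109, and 0.242 without library 1, with a log2 fold change of -2.11 without library 3). *Mki67* was at 34, 4.53 and 109 CPM against 113, 71.6 and 125 CPM. Libraries 1 and 2 differed widely and library 3, with most cells, little (-0.84, adjusted p = 0.166). *Top2a* was at 19.4, 9.07 and 103 CPM against 148, 65.3 and 130.1 CPM (adjusted p = 0.0941). Without library 2 the list had 15 genes lower, and without library 3 it had 8. With cells thinned to 5000 UMIs and the rule applied to the thinned counts, *Mki67* and *Top2a* passed the test (log2 fold change -0.66 and -0.96). *H1f5*, at 10.2, 6.8 and 71.3 CPM against 112, 178 and 115 CPM, and *Ckap2*, a mitotic spindle gene, were lower (-1.63 and -1.03, adjusted p = 0.0449 and 0.0378), and so was *Lyz2*, lysozyme (-1.03, adjusted p = 0.0157), each call being lost without library 1 (adjusted p = 0.623, 0.577 and 0.058). Without library 3 *H1f5* and *Ckap2* were at -3.97 and -1.86 (adjusted p = 8.7e-05 and 0.0251), and the call of *Lyz2* was lost (-0.48, adjusted p = 0.426).

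Higher in Lrig1+ members were *St8sia6*, a sialyltransferase, at 21.4, 41.6 and 58.4 CPM against 9.71, 3.58 and 21.8 CPM (1.52, SE 0.20, adjusted p = 0.00249), the glutamate receptor subunit *Gria4* (1.03), *Clca3a2* (0.96), *Cyp4a12b* (0.94) and the potassium channel *Kcnb2* (0.84). *Aqp4* was at 56.9, 69.5 and 72.9 CPM against 34.2, 40.3 and 41.5 CPM, higher in every library with no overlap (0.76, adjusted p = 0.00319). All of these calls were lost without library 1 and without library 3 (without library 1, adjusted p = 0.109 for *St8sia6* and 0.109 for *Aqp4*), and with cells thinned to 5000 UMIs the log2 fold change of *Clca3a2* was -0.25. Of 13 airway and simple epithelial genes tested, *Aqp4* and *Cyp2f2* were higher and *Bpifa1* lower. *Cyp2f2* was at 2746, 2807 and 2954 CPM in Lrig1+ and 2126, 1721 and 2312 CPM in Lrig1- members (0.44, adjusted p = 0.00635, and 0.192 without library 1). *Bpifa1* was at 557, 168 and 248 CPM against 728, 193 and 318 CPM (-0.37, adjusted p = 0.0125), lost its call without library 1 (0.376) and without library 3 (0.107), and was at 0.31 with the keratin limit at 20.

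No gene of the basal lists was called in this split. *Col17a1* was at 576, 469.9 and 475 CPM in Lrig1+ and 554, 450.2 and 486 CPM in Lrig1- members (-0.0086, SE 0.059, adjusted p = 0.99), and *Krt15* at 5893, 5567 and 7849.6 CPM against 5348, 5377 and 7611 CPM (0.048, SE 0.054, adjusted p = 0.775). The ranges overlapped for both. None of the hemidesmosome, desmosome, squamous factor, Notch or Wnt genes tested was called, of 17, 10, 15, 10 and 15. Over all genes tested in this split, 0.546% were called higher and 0.666% lower. Lists of this size with no call are near those shares, so they do not show that these genes were unchanged. *Notch1* (0.16, SE 0.13), *Lrig3* (0.11, SE 0.088), *Egfr* (0.13, SE 0.066), *Lgr6* (0.15, SE 0.10) and *Ccnd2* (0.081, SE 0.073) did not pass the test. *Krt14*, which the rule used and no test covers, was at 3255, 2888 and 2815 CPM in Lrig1+ members and at 4012, 3041 and 3769 CPM in Lrig1- members, and *Trp63* at 1134, 842 and 971 CPM against 1007, 732 and 892 CPM.

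**Figure D5:**
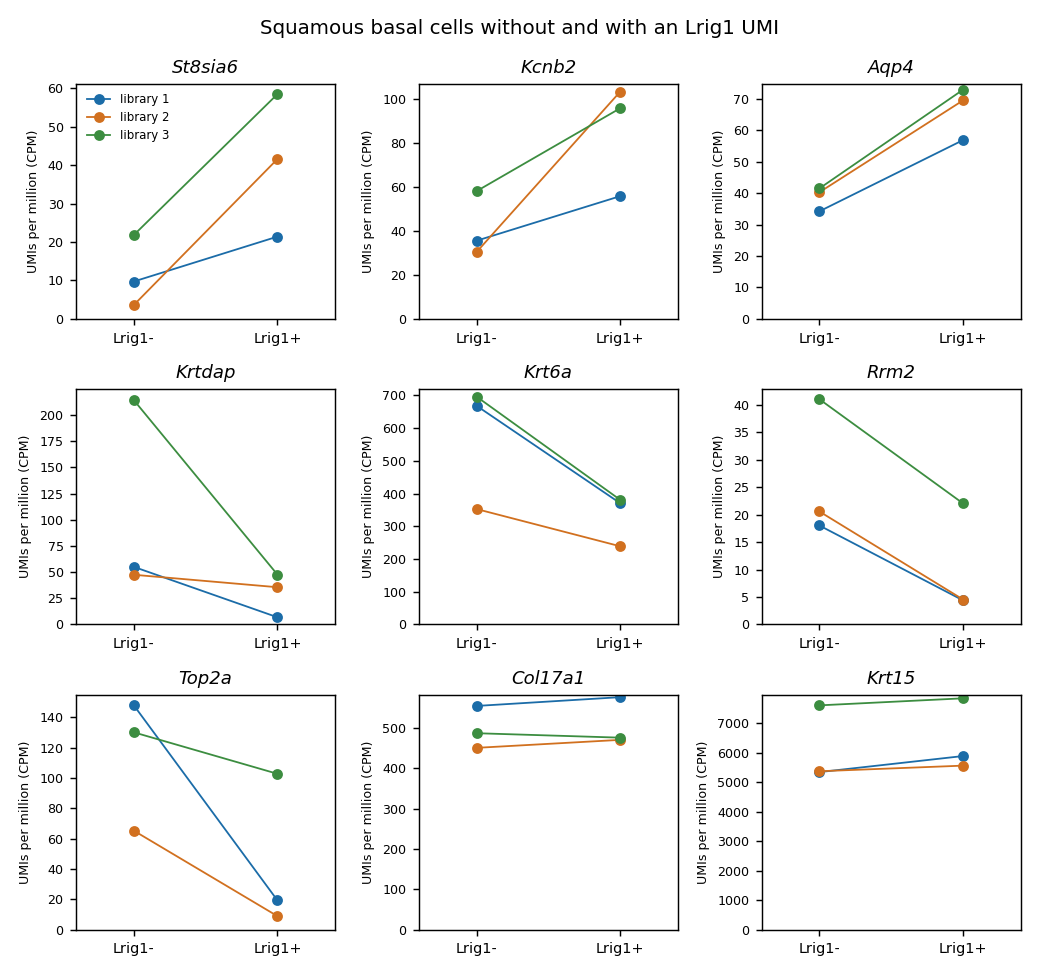
CPM (y axis, linear from 0) of 9 genes in Lrig1+ and Lrig1- squamous basal cells, with a line joining both values of each library. *St8sia6*, *Kcnb2* and *Aqp4* are higher in Lrig1+ cells of all 3 libraries, *Krtdap*, *Krt6a*, *Rrm2* and *Top2a* lower, and *Col17a1* and *Krt15* lie nearly level, at 450 to 576 and 5348 to 7850 CPM.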

How the data were processed

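Single-cell RNA was measured in 3 libraries of tdTomato-sorted mouse larynx (Chromium GEM-X 3' v4). The deposited UMI counts per gene and barcode are whole numbers without normalization, which the authors made with Cell Ranger 8.0.1 on mm39 (GRCm39), per the submitters' processing notes. The barcodes numbered 18068 in library 1, 10816 in library 2 and 31646 in library 3, and their UMIs 211727921, 147898790 and 413632222 in that order.

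Barcodes with 500 to 8000 genes, 1000 to 40000 UMIs and at most 8% UMIs of mt- genes were kept (49393), and 8360 of them with UMIs of all of *Krt5*, *Ltf*, *Scgb3a1* and *Dcn* were dropped as mixed, of which 239 met the rest of the rule. This left 41033 cells. No doublet caller was run, so other doublets remain. The members and gene lists were chosen with earlier results of these data known.

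For each library, the counts of a group's cells were added up. The sums were tested, two-sided, with the quasi-likelihood test of edgeR 4.0.16 under R 4.3.3, after filterByExpr and TMM, with the library as a replicate block, and Benjamini-Hochberg adjusted over all genes tested at a threshold of 0.05. Genes of the rule and, for the split by *Lrig1*, *Lrig1* stayed in library sizes and out of the tests. The pairing comes from the shared pool of mice: deviations of both sums of a library from their group means correlated by 0.155 to 0.187 against all other cells, 0.194 to 0.424 against airway basal cells, 0.356 to 0.556 against the layer above and 0.255 to 0.552 for the *Lrig1* split. Genes were named from the lists and, by value, among genes past the threshold with at least 20 CPM in the mean of the higher group and 1 direction in all 3 libraries, the 15 largest rises and 5 falls against all other cells, 10 and 10 against each other group and 5 and 5 for the *Lrig1* split, passing over Gm and Rik names (1 gene). *Nrg1* and *Tmprss11bnl* of the lists were not matched. The values of 1 list gene are not reported here. Of 33696 gene identifiers 33185 were found in GENCODE vM39, which gave coordinates. On simulated counts, changes of 2-fold were recovered for 96%, 97%, 90% and 93% of the changed genes in the 4 comparisons, in the order above. The simulation set the same dispersion for every gene and a library effect common to both sums, and changed only genes above a count minimum. It checks that the fit runs as meant and does not give the power in the real sums. Alternatives were DESeq2 1.42.0, its size factors, no filter, no block, each library left out, other keratin limits, cells thinned to 5000 UMIs, members without genes of other cell types, and matching on depth.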

Additional observations from a re-analysis of the deposited data

How the results depend on the processing

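The shares and counts rest on 3 libraries, of which library 3 holds most members. With the library in the fit, p-values measure how the difference between 2 groups of cells varied over these pools. The spread between the pools themselves enters only in the fit with no replicate block. Against all other cells, 8778 genes were called, and every alternative stayed within 1.5 times of this count (6052 to 9905, with 6474 to 8046 when 1 library was left out). Against *Nkx2-1* positive basal cells the 7582 calls became 4920 with no replicate block, the other alternatives staying within 1.5 times (5460 to 7573 with 1 library left out). Against Krt13-high cells the 2702 calls became 1564 with DESeq2, 4305 and 987 with a keratin limit of 20 and 80, 910 with no replicate block, and 1322 to 3160 with 1 library left out. The 131 calls of the *Lrig1* split became 1142 and 0 (173 at an unadjusted p under 0.05) at these limits, 296 with matching on depth, 460 with no low-count filter, 0 (326) with no replicate block, and 0 to 442 with 1 library left out. Fewer cells enter at the limit of 80 and fewer libraries when 1 is left out, and the cause of the other changes was not tested.

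The mean share of members was 11.6% and 0.689% at limits of 20 and 80, by construction, and the share of them with a *Lrig1* UMI was 53.6% and 25.4% at these limits and 20.7% when the rule was applied anew to thinned cells, which took 394, 183 and 1900 cells, not the same set as the members thinned in the report. Leaving out a library gave 2.32 to 4.93% and 38.1 to 43.5%. Over 254 named gene values with 3065 alternatives, 2757 kept their direction and side of the threshold, whatever the size of the shift. Of the others, 206 kept their direction but fell out of the threshold, 48 came within it, and 48 that were uncalled in the main fit changed direction. A further 6, called in the main fit, reversed: *Lrig1* (0.047, limit 20) and *Lgr6* (-0.22, limit 80) against all other cells, *Mki67* (-0.11, limit 20) and *Krtdap* (0.91, limit 80) against Krt13-high cells, and *Clca3a2* (-0.25, thinned) and *Bpifa1* (0.31, limit 20) in the *Lrig1* split, the cause of which was not tested. The fit with no replicate block accounted for 53 of the 206 calls lost. A share of cells with a UMI is limited by depth, and the thinned alternatives changed both the depth and the cells that the rule took.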
